A study of Homo sapiens with 13 samples.

Results

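PTBP1, the polypyrimidine tract binding protein, was mapped on the chromatin of MOLM-13 cells, an established human acute myeloid leukemia line, and its sites are described here gene by gene. All 9370 PTBP1 peaks were taken, of the 17058 peaks listed for PTBP1 or RUNX1. Each peak was given to every GENCODE version 44 gene whose transcription start site (TSS, the 5′ end of the gene) lay inside it or within 1 kb of it. A peak that reached no TSS was given to the gene bodies it overlapped, and a peak with neither was called intergenic. By this rule 5305 peaks (56.6%) were TSS peaks, 3184 (33.98%) gene-body peaks and 881 (9.40%) intergenic peaks.

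PTBP1 is known for binding pyrimidine-rich stretches of nascent RNA next to exons and keeping them out of the mature message. It also takes part in polyadenylation, RNA stability and translation from internal entry sites. It has the paralogs PTBP2, which is typical of neurons, and PTBP3, which is typical of blood cells. PTBP1 binds RNA through RNA recognition motifs and is not a classical DNA-binding transcription factor. These sites were the question the chromatin mapping addressed, together with their relation to RUNX1, a transcription factor of blood cells that binds DNA.

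The labels name no treatment, and all cells came from 1 line. In CUT&Tag an antibody directs a transposase to the protein, and the transposase cuts and tags the DNA nearby. By the labels, the PTBP1 antibody (Thermo) was used in 2 CUT&Tag replicates, the RUNX1 antibody (Abcam) in 2 and control IgG in 1, among 13 libraries that also cover CUT&RUN. The study's reagent list gives another supplier, Invitrogen, for the RUNX1 antibody of CUT&Tag. Only 1 list of peaks per target was analysed, which leaves no replicate error, no IgG level at a peak and no test between conditions.

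Strength is given as fold enrichment, the ratio of the fragments stacked at the summit to the local background, with 1 added to each. Whether IgG served as the control that sets this background is not given in the sources used here. The weakest PTBP1 summit held 11 fragments, the median 21 and the strongest 390 among peaks on the usual background of 0.72 fragments. A raised background was found at 455 peaks, where a high stack gives a low fold enrichment. Intervals in parentheses are 95% Wilson intervals. They cover counting error only, and neighbouring peaks and overlapping genes are not independent. The RUNX1 list, with 7688 peaks on a usual background of 0.330 fragments, is given as a reference.

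The summit windows of the strongest PTBP1 peaks show what kind of DNA carried the signal. Each window holds 101 bases centred on the summit and is written 5′ to 3′ on the plus strand of hg38. They belong to the 7 strongest peaks, less the MBOAT7 and TSEN34 peak, whose window touches exons, together with the strongest peak over a small nuclear RNA gene. Capitals mark, on either strand, the GC box with the letters GGGCGG, the CCAAT box of promoters, the core TGACG of the cyclic AMP response element (CRE), or a run of at least 12 pyrimidines.
SIVA1 (chr14:104752838-104752938): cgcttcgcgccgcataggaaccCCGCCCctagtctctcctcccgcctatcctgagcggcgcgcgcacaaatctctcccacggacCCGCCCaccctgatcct
NDUFA11 and VMAC (chr19:5904381-5904481): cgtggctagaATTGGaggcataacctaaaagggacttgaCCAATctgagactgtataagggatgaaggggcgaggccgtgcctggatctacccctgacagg
TMEM141 (chr9:136791002-136791102): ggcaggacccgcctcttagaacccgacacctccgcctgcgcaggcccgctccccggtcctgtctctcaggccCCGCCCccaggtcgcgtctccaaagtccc
CIC (chr19:42268778-42268878): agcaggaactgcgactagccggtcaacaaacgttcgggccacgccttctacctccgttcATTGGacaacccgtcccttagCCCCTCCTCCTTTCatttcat
LMTK3 (chr19:48493152-48493252): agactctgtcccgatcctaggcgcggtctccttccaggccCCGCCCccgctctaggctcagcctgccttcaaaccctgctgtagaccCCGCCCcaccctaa
ASMTL (chrX:1453127-1453227): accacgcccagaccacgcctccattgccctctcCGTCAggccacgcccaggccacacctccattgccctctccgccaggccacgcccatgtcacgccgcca
U2 (chr17:43251656-43251756): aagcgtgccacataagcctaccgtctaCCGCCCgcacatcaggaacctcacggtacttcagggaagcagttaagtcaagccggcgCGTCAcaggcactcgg
A GC box lay in the SIVA1, TMEM141, LMTK3 and U2 windows, a CCAAT box in the NDUFA11 and CIC windows, and the CRE core in the ASMTL and U2 windows. A pyrimidine run of that length was present only in the CIC window among these 7. Such matches describe the letters and do not show which factor sat there.

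Of the 10 strongest PTBP1 peaks, 7 were TSS peaks and 3 had no TSS. The first covered the starts of MBOAT7, a lysophospholipid acyltransferase, and of TSEN34, a subunit of the tRNA splicing endonuclease (chr19:54189056-54192000, fold enrichment 227.3, 390 fragments). It was followed by SIVA1, an apoptosis regulator (chr14:104751749-104753862, 226.7, 389 fragments). The third was shared by NDUFA11, a subunit of respiratory complex I, and VMAC (chr19:5903467-5905196, 218.0, 374 fragments). TMEM141 (217.4), CIC, a transcriptional repressor (208.1), ASMTL (204.6) and ATP8B3, a phospholipid flippase (193.0), also held TSS peaks among the 10 strongest. Those without a TSS lay in LMTK3 (206.4), in an unnamed gene on chromosome 21 (198.2) and in intergenic sequence of chromosome 21, 4245 bases from a Y RNA gene (200.6). The short arm of chromosome 21 holds near-identical copies of ribosomal RNA genes, so placement there is uncertain. All 10 overlapped a RUNX1 peak.

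TSS peaks were the strongest class. Their median fold enrichment was 14.5 (quartiles 10.5 and 22.7), with a median of 26 fragments and a width of 734 bases. Gene-body peaks had a median of 10.5 (quartiles 8.72 and 13.95), 17 fragments and 580 bases. Intergenic peaks also had a median of 10.5, with 18 fragments and 520 bases. In the RUNX1 list the 3 medians lay closer together, at 15.0, 14.3 and 14.5. The lists do not share a scale, so only the order within each is compared.

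**Figure D1:**
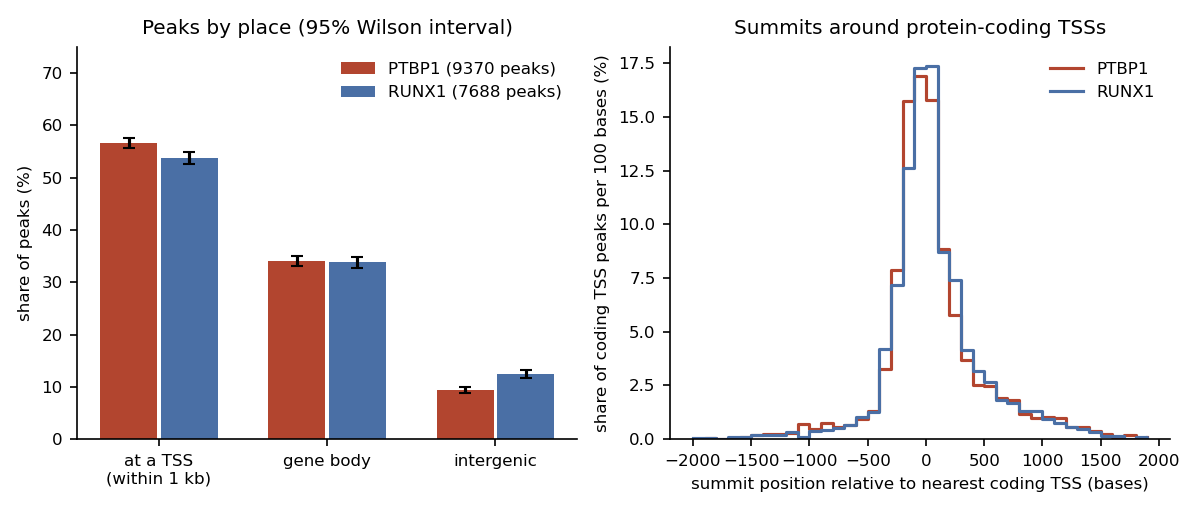
Left, share of peaks (%) at a TSS, in a gene body or in intergenic sequence for the PTBP1 and RUNX1 lists, with 95% Wilson intervals. Right, share of coding TSS peaks per 100 bases of summit position relative to the nearest protein-coding TSS. PTBP1 summits lay on both sides of the TSS, with 57.5% within 200 bases of it.

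Summits were centred on the TSS itself. For the 4490 peaks at a protein-coding TSS the median summit lay at -3 bases (quartiles -149 and 197), 57.5% were within 200 bases and 49.2% lay downstream. The RUNX1 summits had a median of 14.5 bases and 52.98% downstream. TSS peaks often served several genes. Of the 5305 TSS peaks, 2194 (41.4%, 40.04 to 42.7) reached more than 1 TSS, and 8 reached 5 TSSs. At 454 peaks (8.56%, 7.83 to 9.34) protein-coding genes started back to back on opposite strands. These had a median fold enrichment of 16.9, against 14.5 at the 4036 other peaks with a protein-coding TSS and 12.2 at the 815 peaks with noncoding TSSs only. A further kind of pair, a protein-coding start with a lncRNA start pointing away from it, was found at 597 peaks (11.3%).

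A PTBP1 peak at the TSS was found for 7571 of 62663 annotated genes. Protein-coding genes made up 69.8% of them and lncRNA genes, which give long transcripts without a protein product, 23.7%. Among 20033 protein-coding genes, 5281 (26.4%, 25.8 to 26.98) had one, and this share is the background for every coding family below. The RUNX1 list reached 4266 coding genes (21.3%), and 3469 genes were reached by both, which is 65.7% of the PTBP1 genes. Among 18866 lncRNA genes, 1792 (9.50%, 9.09 to 9.93) had a PTBP1 TSS peak, and 666 of these were reached by peaks without a coding TSS. The share was 9.53% for microRNA genes, 5.20% for snoRNA genes, 4.08% for scaRNA genes, 1.63% for small nuclear RNA genes and 1.58% for the class misc_RNA. Pseudogenes were rarely reached, at 137 of 15233 (0.899%, 0.761 to 1.06). Of the 145 immunoglobulin V genes and 107 T cell receptor V genes, 0 had a peak within 1 kb of the 5′ end, and the RUNX1 list reached 0 as well.

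Among the coding families the HNRNP genes had the highest share. Of 23 HNRNP genes, which encode the abundant proteins that coat nascent RNA, 19 had a PTBP1 TSS peak (82.6%, 62.9 to 93.0). The median of their strongest peaks was 29.1. HNRNPL, a splicing regulator that binds CA-rich RNA, had the strongest (158.7, 272 fragments), with the summit 1920 bases downstream of the TSS. HNRNPA1 (77.3), HNRNPUL1 (73.8) and HNRNPC (63.4) followed. The 4 members without a TSS peak were HNRNPA0, HNRNPA1L2, HNRNPA1L3 and HNRNPH1. The RUNX1 list reached 17 of the 23, all among the 19.

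Other RNA-processing families had lower shares. Among the SF3, PRPF and U2AF splicing factors 12 of 25 had a peak (48.0%, 30.0 to 66.5), led by U2AF2, which binds the pyrimidine tract before the 3′ splice site (95.9), and SF3A2 (76.7). Among the DDX and DHX helicases 26 of 54 did (48.1%, 35.4 to 61.1), led by DDX5 (77.9), DDX42 (66.3) and DDX39B (36.6). The integrator complex, which ends transcription of small nuclear RNAs, had 10 of 16 (62.5%, 38.6 to 81.5). The SNRP and LSM core proteins had 11 of 25 (interval 26.7 to 62.9%), with SNRPD2 (53.5) and SNRPA (44.2) first. For the RBM proteins (15 of 38), the SRSF splicing factors (5 of 12) and the exosome subunits (3 of 10) the interval included the background. RBM15, fused to another gene in a childhood leukemia, carried the strongest RBM peak (118.0). The 5 SRSF genes were SRSF1 (32.6), SRSF9 (18.6), SRSF10 (14.5), SRSF6 (9.30) and SRSF2 (2.58). SRSF2 had 78 fragments at its summit over a raised background, so neither its fold enrichment nor its stack ranks with those on the usual background. The exosome members were EXOSC5 (45.3), EXOSC4 (30.2) and EXOSC6 (13.4).

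PTBP1 itself was among the most covered genes. Its TSS peak (chr19:795961-799600) had a fold enrichment of 110.5 and 189 fragments, and 4 further peaks along the gene had 20.3, 16.9, 11.05 and 9.30. Together they spanned 10691 of its 15253 bases (70.1%), against 841 bases (5.51%) in 1 RUNX1 peak. The gene lies in a 1 Mb window of chromosome 19 with 78 PTBP1 and 18 RUNX1 peaks, among the crowded windows described below. PTBP3 had 1 TSS peak (24.998, 42 fragments), and PTBP2 had 0 peaks in both lists.

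Among genes of translation and energy supply the shares ranged widely. Cytosolic ribosomal protein genes were reached in 51 of 81 cases (63.0%, 52.1 to 72.7), with RPS19 (70.9) and RPL7 (45.3) among the strongest. The RUNX1 list reached 30 of the 81 (37.04%, against 21.3% of all coding genes). Both lists reached 26 of the 51 PTBP1 genes, beside 65.7% over all coding genes. Genes named EIF after translation initiation factors, not all of them such factors, were reached in 36 of 56 cases (64.3%, 51.2 to 75.5). EIF1 (74.4), EIF4A1 (63.4) and EIF5 (45.3) led them. Mitochondrial ribosomal proteins had 31 of 78 (39.7%, 29.6 to 50.8), with MRPL54 (98.2) first. Genes of the respiratory chain named COX, UQCR or ATP5, not all of them subunits, had 26 of 55 (47.3%, 34.7 to 60.2). COX20 (66.3) and ATP5MC1 (64.5) were first. The NDUF genes of complex I had 19 of 48 (39.6%, 27.02 to 53.7), with NDUFA11 and NDUFAF8 (116.9) first. Aminoacyl-tRNA synthetases had 13 of 34 and solute carriers 94 of 374, with intervals that included the background.

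Several housekeeping machineries had intervals above the background. Proteasome subunits had 23 of 50, led by PSME2 (86.6). Ubiquitin-conjugating enzymes had 17 of 37, led by UBE2S (62.8), and USP deubiquitinases 22 of 52, led by USP5 (91.3). RAB GTPases, which direct vesicle traffic, had 26 of 66, led by RAB5B (87.8), and the VPS sorting genes 17 of 35, led by VPS26C (50.6). RNA polymerase subunits had 16 of 34, led by POLR2I (40.1). Histone methylation enzymes had 14 of 28 (interval 32.6 to 67.4%), led by KDM4A (180.2) and KMT5C (120.9). Replication and division genes had 23 of 49, led by CDC27 and CDC45 (both 31.4), and cyclins with their kinases 19 of 42, led by CDK19 (69.8) and CCNK (62.8). In all, 19 of the 39 coding families had an interval wholly above 26.4% and 9 an interval wholly below it.

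Families near the background included the ZNF zinc finger genes (140 of 515, 27.2%, led by ZNF687 at 151.7), the TAF and GTF general transcription factors (22 of 62), the mediator subunits (10 of 30), the DNAJ co-chaperones (11 of 45) and the chaperonin genes (CCT7 at 25.6 and CCT2 at 8.14, of 8). Another group of families lay below it. Olfactory receptors had 1 of 416 (OR4M1, 20.9), keratins 0 of 55, beta-defensins 0 of 40 and protocadherins 1 of 66 (PCDH12, 9.88). A count of 0 of 55 allows a share of up to 6.53%, and 0 of 40 up to 8.76%. Potassium channels had 4 of 96 and cytochromes P450 4 of 57 (CYP46A1, CYP2R1, CYP20A1 and CYP2W1). HOX genes, transcription factors of body patterning and blood progenitors, had 2 of 39 (HOXC4 at 10.5 and HOXA5 at 8.14). Clustered histone genes had 10 of 71 (14.1%, 7.83 to 24.0), led by H2AC25 and H2BC26, which share a peak (37.2). Genes named CD for leukocyte antigens had 9 of 79 (11.4%, 6.11 to 20.3), among them CD82 (64.5), CD68 (58.1), a macrophage marker, and CD164 (42.4). RUNX1 reached 12 of the 79 (15.2%, against 21.3% of all coding genes). Both lists reached 6 of the 9 PTBP1 genes, close to the 65.7% over all coding genes.

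**Figure D2:**
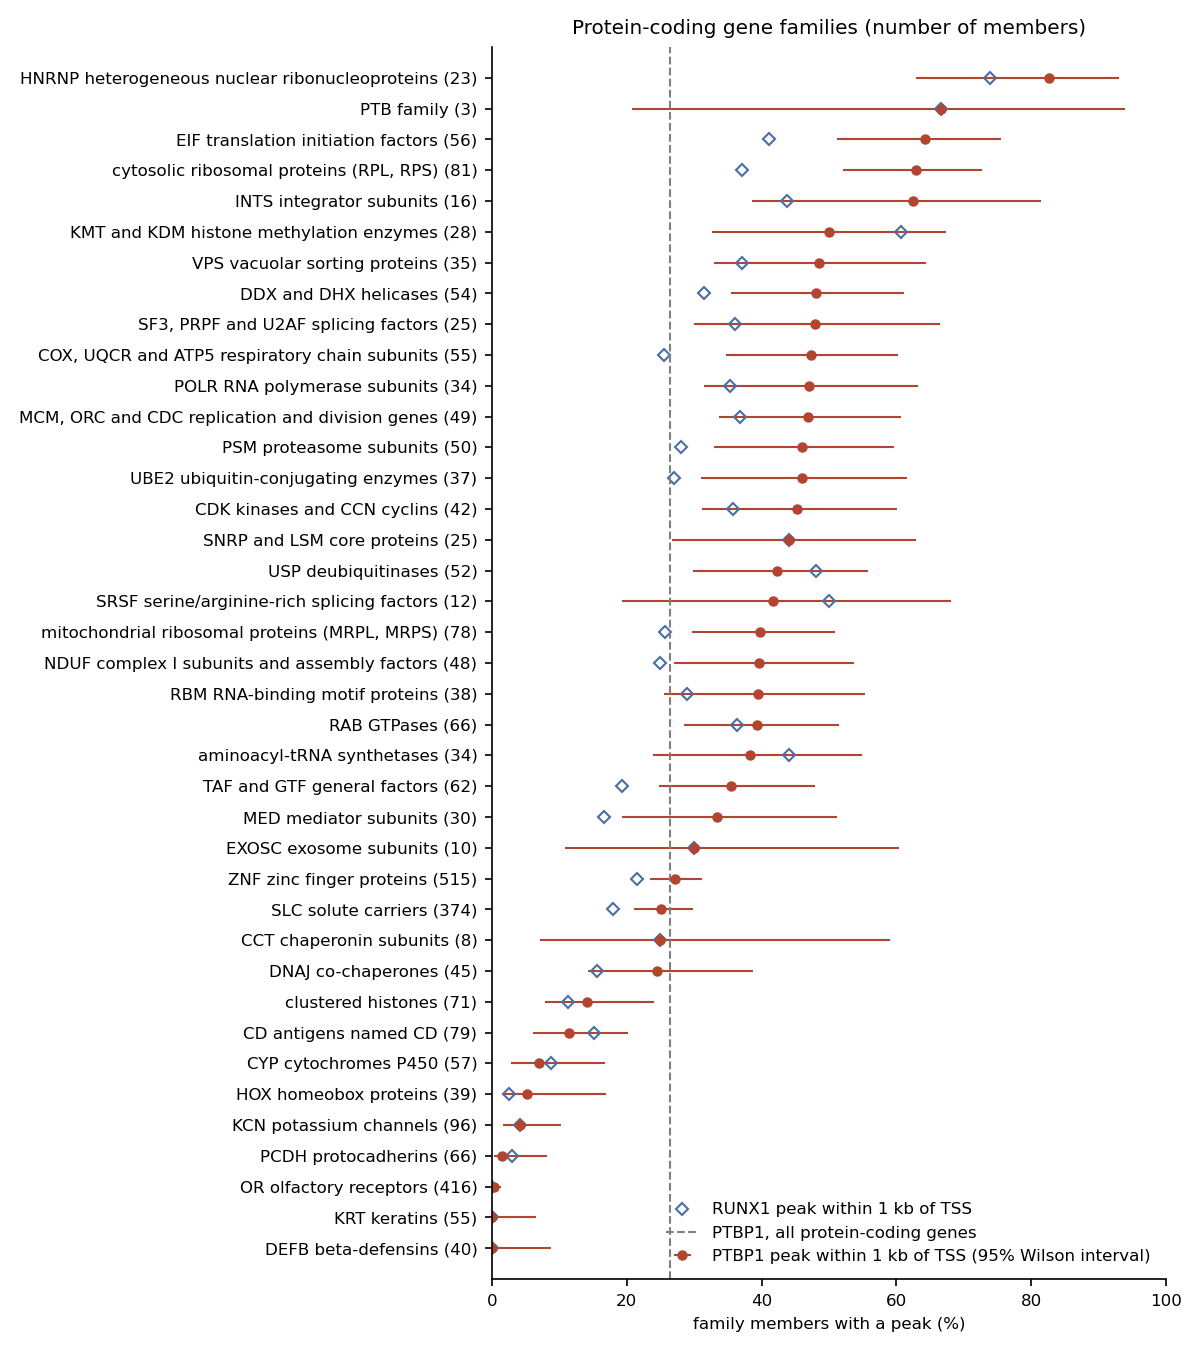
Share of the members (%) of 39 protein-coding families with a peak within 1 kb of the TSS, for PTBP1 (filled, with 95% Wilson interval) and RUNX1 (open), with the number of members in parentheses. The dashed line is the PTBP1 share over all protein-coding genes, 26.4%. HNRNP genes were highest (82.6%) and the keratins and beta-defensins lowest (0 members).

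Among lncRNA genes, of which 9.50% had a PTBP1 TSS peak, the share differed between the classes their names give. Divergent transcripts, which begin at a coding promoter and run the other way, had 224 of 589 (38.03%, 34.2 to 42.0), led by ZMPSTE24-DT (160.5), KPNB1-DT (149.99) and MICALL2-DT (127.9). Antisense genes had 323 of 1841 (17.5%, 15.9 to 19.3) and LINC genes, which lie between coding genes, 112 of 2261 (4.95%, 4.13 to 5.93). The RUNX1 list had the same order, with 36.7% of divergent, 15.0% of antisense and 4.07% of LINC genes, beside 8.15% of all lncRNA genes. A peak at a divergent transcript can also be the peak of its coding partner, and these cannot be told apart. The snoRNA host genes had 13 of 28 (46.4%, 29.5 to 64.2), led by SNHG29 (47.1), SNHG7 (38.4) and SNHG10 (36.04). The RUNX1 list reached 8 of the 28 (28.6%).

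Genes of small nuclear RNAs, the RNA parts of the spliceosome, were reached at few of their many copies, most of which are pseudogene copies. The share over all small nuclear RNA genes was 1.63%, and the intervals of the U4 to U12, U1 and RNU2 groups include it. Of U4, U5, U6, U7, U11 and U12 type genes 18 of 1614 had a TSS peak (1.12%, 0.707 to 1.76). Among these were RNU6-2 (79.1), RNU6ATAC (52.3) and RNU12 (30.8). Of U1 type genes 4 of 143 had one (2.80%, 1.09 to 6.97), namely RNVU1-27 (33.7), RNVU1-14 (23.3), RNU1-2 (12.2) and RNVU1-3 (8.72). Of the RNU2 genes 3 of 71 had one (4.23%, 1.45 to 11.7), namely RNU2-17P (45.3), RNU2-2P (36.04) and RNU2-4P (29.1). The strongest peak with noncoding TSSs only was at a U2 gene, counted apart because it carries the name U2 (chr17:43251442-43252386, 187.2, 321 fragments). It stands in a tandem array of 13 U2 genes within CCDC200 (chr17:43233787-43300231), of which 4 had a PTBP1 TSS peak and 1 a RUNX1 TSS peak. The 4 PTBP1 peaks over CCDC200 had fold enrichments of 98.2, 68.6, 187.2 and 30.8. The U2 copies are near-identical, so reads can be placed at the wrong copy, and the values per copy are uncertain. RN7SK, the RNA that holds back the elongation factor P-TEFb, lay 96.6% inside 1 PTBP1 peak and 0% inside RUNX1 peaks. The ribozyme genes RMRP and RPPH1 lay wholly inside a PTBP1 peak, as did RN7SL2 (58.1), the RNA of the signal recognition particle. RUNX1 peaks also covered RPPH1 and RN7SL2 wholly and RMRP for 45.1%. SNORD genes had 25 of 313 and SNORA genes 18 of 214 (8.41%, 5.39 to 12.9), beside 5.20% of all snoRNA genes. With the 5′ base itself required inside the peak, 2 SNORD and 8 SNORA genes remained. Most of these genes thus had a peak beside their annotated 5′ end and not over it. The RUNX1 list had 14 and 4, beside 21 of all 942 snoRNA genes (2.23%). The SCARNA genes with a TSS peak were SCARNA13 (36.04) and SCARNA2 (11.6), of 20, and VTRNA1-1 (12.8) was the vault RNA reached.

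The other strong peaks with noncoding TSSs only were at an unnamed lncRNA gene within PRR36 (159.3), at FAM86FP (150.6), at an unnamed gene of chromosome 21 (148.2) and at FAM86C2P (132.5). FAM86FP and FAM86C2P are pseudogene copies of a methyltransferase gene.

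MicroRNA genes are annotated as hairpins cut from longer transcripts, so their 5′ ends are processing sites and not true starts. By the rule above they still count as TSSs. Of the 179 microRNA genes with a PTBP1 TSS peak, 106 were reached by peaks without a coding TSS. How far such ends raise the number of TSS peaks was not tested. Counting hairpins that a PTBP1 peak overlapped, 101 of 1879 were found (5.38%, 4.44 to 6.49), and the RUNX1 list covered 58, with 40 in common. The MIR23A, MIR27A and MIR24-2 cluster, which is active in myeloid cells, lay in 1 PTBP1 peak (chr19:13835366-13837900, 31.4, 53 fragments). MIR191 and MIR425 shared a peak (39.5), as did MIR132 and MIR212 (15.7). MIRLET7I (33.1), MIRLET7B (12.2), MIR150 (11.05), MIR130B (10.5) and MIR26B (10.5) were each overlapped by a peak too. These hairpins were chosen after their values were seen. The mature sequences of 8 of their products, from RefSeq on GRCh38.p14, are shown with the seed (bases 2 to 8, which pair with target messages) in capitals.
miR-23a-3p (chr19:13836595-13836615, minus strand): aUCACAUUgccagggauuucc
miR-27a-3p (chr19:13836447-13836467, minus strand): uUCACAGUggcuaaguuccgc
miR-24-3p (chr19:13836289-13836310, minus strand): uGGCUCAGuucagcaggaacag
miR-132-3p (chr17:2049929-2049950, minus strand): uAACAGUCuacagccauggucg
miR-212-3p (chr17:2050290-2050310, minus strand): uAACAGUCuccagucacggcc
miR-191-5p (chr3:49020672-49020694, minus strand): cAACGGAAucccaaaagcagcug
let-7b-5p (chr22:46113691-46113712, plus strand): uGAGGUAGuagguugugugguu
let-7i-5p (chr12:62603691-62603712, plus strand): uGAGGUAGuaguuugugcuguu
The pair let-7b-5p and let-7i-5p had the same seed, GAGGUAG, and the pair miR-132-3p and miR-212-3p had the seed AACAGUC.

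Most genes had a single PTBP1 peak, but some carried many. Of 9245 genes with any peak, 7310 had exactly 1, 203 had 5 or more and 36 had 10 or more. The RUNX1 list had 5 or more peaks in 53 genes, and 25 genes met that count in both lists. Among the 203 genes the median was 6 PTBP1 peaks and 1 RUNX1 peak, 196 had fewer RUNX1 than PTBP1 peaks and 31 had no RUNX1 peak. Since these genes were chosen by their PTBP1 count, an excess of PTBP1 over RUNX1 peaks is in part built in. AHRR, the repressor of the aryl hydrocarbon receptor, had 23 PTBP1 and 8 RUNX1 peaks over 116578 bases, and the PDCD6-AHRR readthrough gene that contains it had 28 and 9. The gene ENSG00000284989, also with 28 PTBP1 and 4 RUNX1 peaks, overlaps ST3GAL3, a sialyltransferase, with 19 and 3. Overlapping genes share peaks and are not separate cases. GSE1 had 19 PTBP1 and 8 RUNX1 peaks and HIVEP3 19 and 6, both over very long genes. BAHCC1 had 18 and 4, COX19 16 and 5, SLC38A10 15 and 1, and SMAP2 14 and 6. RXRA, the partner of retinoic acid receptors, had 14 and 5. SLC12A7, a potassium chloride cotransporter, had 12 PTBP1 peaks and 0 RUNX1 peaks. By length the densest of these was SLC38A10, with 2.96 PTBP1 peaks per 10 kb, against 0.359 in HIVEP3.

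**Figure D3:**
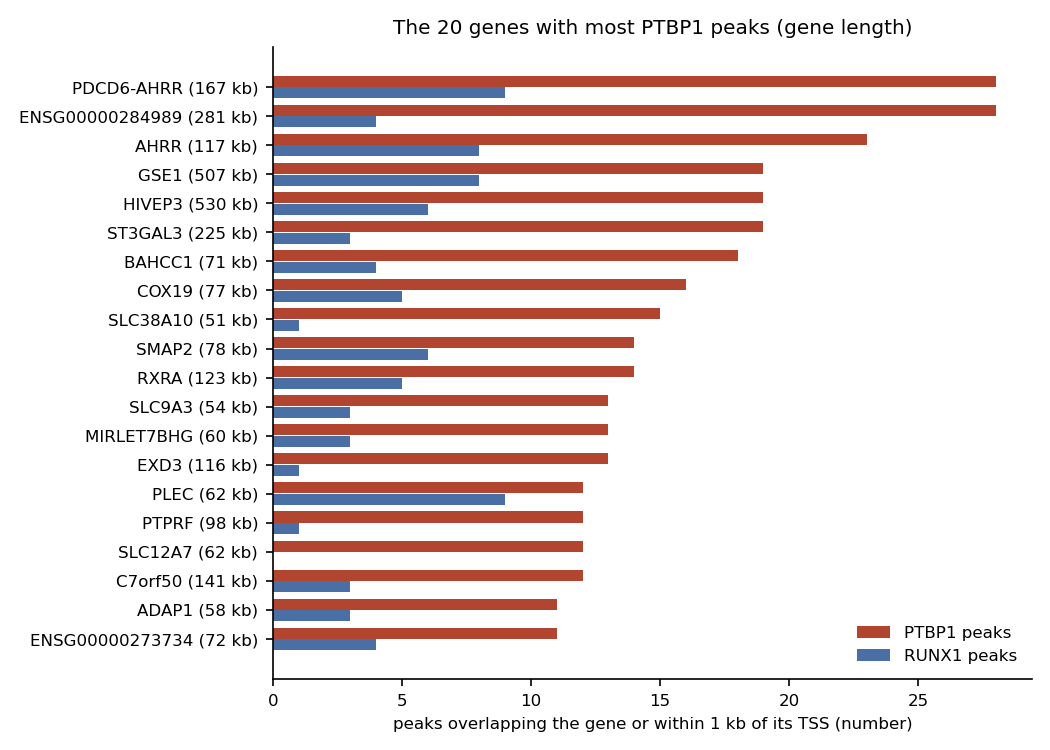
Number of PTBP1 and RUNX1 peaks that overlap the gene or lie within 1 kb of its TSS, for the 20 genes with most PTBP1 peaks, with gene length in kb. PDCD6-AHRR had 28 PTBP1 and 9 RUNX1 peaks, and SLC12A7 had 12 and 0.

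Part of these genes lay in crowded stretches. In 23 windows of 1 Mb with at least 50 PTBP1 peaks each lay 1913 PTBP1 peaks (20.4%) and 514 RUNX1 peaks (6.69%). Since these windows were chosen by PTBP1 count alone, a larger share of PTBP1 than of RUNX1 peaks in them is in part built in. The windows were on chromosomes 1, 5, 7, 8, 9, 11, 16, 17 and 19, most of them near chromosome ends, and 111 of the 203 genes had a peak in one. Without the peaks of those windows 92 genes had 5 or more. On chromosome 1 between 39 and 44 Mb alone, 25 of the 203 genes were found. Gene-body peaks inside the windows overlapped a RUNX1 peak in 12.01% of 991 cases, against 42.2% of 2193 outside them. How far the choice of windows by PTBP1 count sets this difference was not tested. Per protein-coding gene, chromosome 17 had 0.831 PTBP1 peaks and chromosome 19 had 0.724, chromosomes 2, 3 and 4 had 0.253, 0.245 and 0.215, and X had 0.134. The RUNX1 values for 17 and 4 were 0.472 and 0.267.

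Some genes lay almost wholly under PTBP1 peaks. Of 29060 genes of at least 5000 bases, 103 had 50% or more of their length in PTBP1 peaks and 4 in RUNX1 peaks. Without the crowded windows the number was 31. Among genes of at least 20000 bases it was 9, and 0 for RUNX1. NEAT1, the lncRNA that builds paraspeckles, was the most covered of these 9, with 20845 of 22767 bases (91.6%) in 5 PTBP1 peaks, against 97 bases (0.426%) in 1 RUNX1 peak. Its peaks had fold enrichments of 88.4, 41.3, 29.1, 36.6 and 41.3 from the 5′ to the 3′ end. The summit of the first lay upstream of the NEAT1 start, among other noncoding starts, so its value is not a level within NEAT1. The last was 12361 bases wide and had no RUNX1 overlap, and the RUNX1 peak sat on the TSS. NEAT1 lies in a crowded window on chromosome 11. MALAT1, its neighbour, was covered for 23.2% by 2 peaks, of 20.3 at its start and 46.5 at its end. The peak at the start had 140 fragments over a raised background of 5.93. The peak at the end had 79 fragments on the usual background, so the fold enrichments do not rank the 2 stacks.

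The widest PTBP1 peak, 14510 bases, lay in TSPOAP1 and its antisense gene (chr17:58313664-58328173) and had no RUNX1 overlap. Its fold enrichment was 9.72, with 124 fragments over a raised background of 11.9. TSPOAP1 was covered for 78.7% of 27568 bases by PTBP1 peaks and for 0 bases by RUNX1 peaks. ABCA2, a lipid transporter, was covered for 82.5% by 8 PTBP1 peaks and for 9.09% by RUNX1 peaks, and it shared its strongest peak (74.4) with LINC02908. TPPP (62.5%), PPT1 (57.8%), GRK2 (54.4%), ARHGAP45 (52.5%), the histone demethylase KDM6B (51.6%) and PLEC (50.2%) completed the 9. In the same order, RUNX1 peaks covered 10.0%, 15.2%, 9.26%, 10.6%, 31.5% and 25.3% of their lengths. Since the 9 genes were chosen by their PTBP1 coverage, a lower RUNX1 coverage is in part built in. The lists also differ in usual background (0.72 and 0.330 fragments), and its part in coverage and width was not tested. Of the peaks at least 5000 bases wide, 76 were PTBP1 peaks and 3 were RUNX1 peaks.

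**Figure D4:**
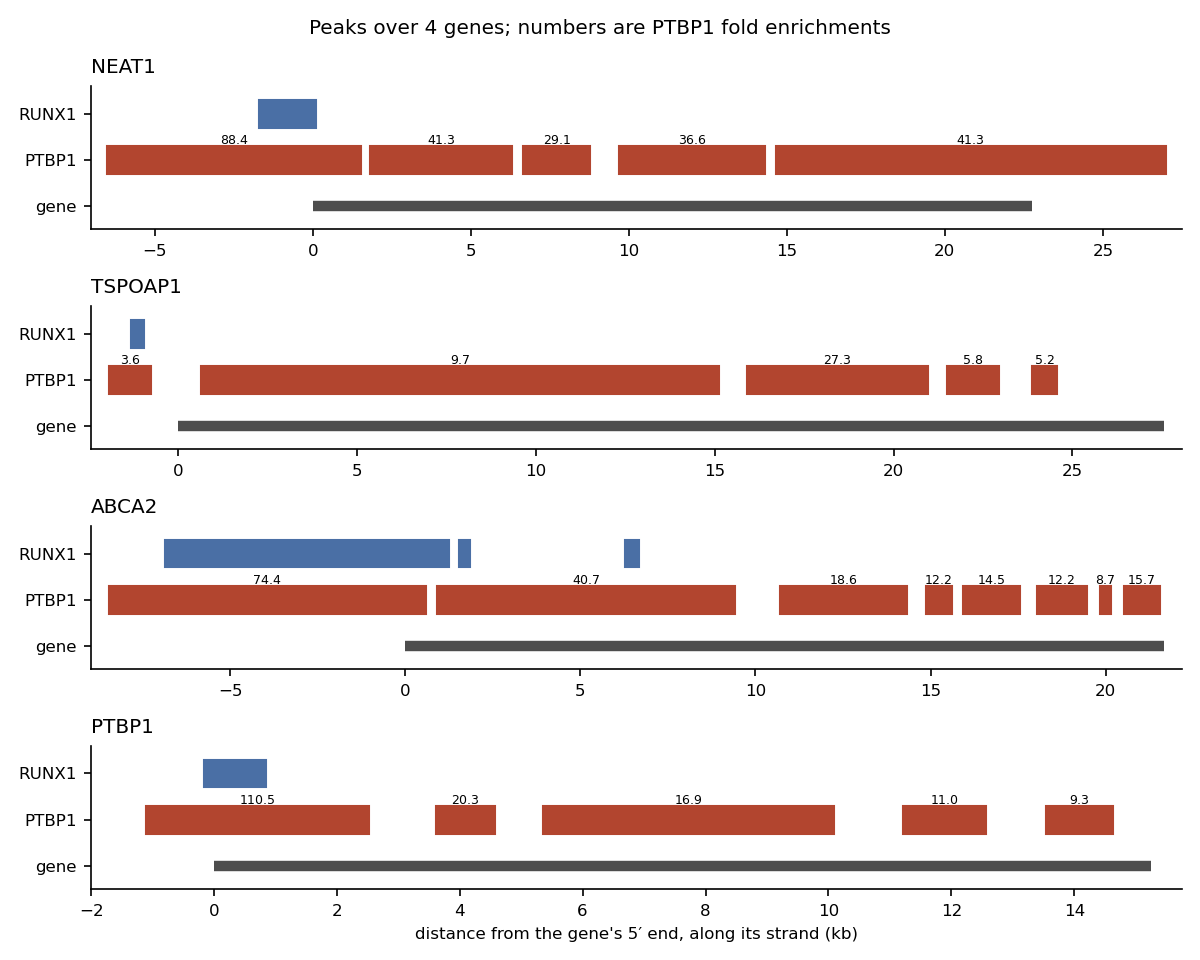
PTBP1 and RUNX1 peaks over NEAT1, TSPOAP1, ABCA2 and PTBP1, drawn to scale by distance (kb) from the gene's 5′ end along its strand, with the fold enrichment above each PTBP1 peak. PTBP1 peaks covered 91.6%, 78.7%, 82.5% and 70.1% of the 4 genes, and RUNX1 peaks lay mainly near the 5′ ends. NEAT1, TSPOAP1 and ABCA2 were chosen by their PTBP1 coverage.

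Gene-body peaks away from any TSS showed where within a gene PTBP1 was found. Of their 3184 summits, 577 (18.1%, 16.8 to 19.5) lay in an exon of a canonical transcript, 2156 (67.7%) in an intron and 451 in neither. The RUNX1 list had 8.35% (7.35 to 9.48) of 2599 in an exon. Coding sequence held 9.42% of PTBP1 summits and 2.73% of RUNX1 summits, and the 3′ untranslated region 5.06% and 2.23%. Within 1 kb of the 3′ end of a protein-coding gene lay 334 PTBP1 peaks (10.5%) and 83 RUNX1 peaks (3.19%). Intronic PTBP1 summits lay in shorter introns, with a median of 6560.5 bases against 19347 for RUNX1. Within 100 bases of the 5′ splice site lay 9.46% of them (8.30 to 10.8) and of the 3′ splice site 8.12% (7.04 to 9.35), against 2.79% and 1.71% for RUNX1. Intron length moves with these shares, since a short intron puts any position near a splice site, and its part in them was not tested. Intron 1 held 33.7% of intronic PTBP1 summits and 40.7% of intronic RUNX1 summits. A start of some other annotated transcript lay within 1 kb of 1417 PTBP1 gene-body peaks (44.5%).

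The strongest gene-body peaks after those of LMTK3 and chromosome 21 were in C19orf81 and SHANK1, which overlap (143.6), SDR42E2 (130.2) and CASP9, an initiator of apoptosis (121.5). Exonic summits overlapped a RUNX1 peak in 20.5% of cases and intronic summits in 31.0%. The share was 61.3% for TSS peaks (60.0 to 62.6), 32.8% for all gene-body peaks and 35.5% for intergenic peaks. After the one on chromosome 21, the strongest intergenic peaks were 3870 bases from MIR23AHG, the host gene of the microRNA cluster above (chr19:13846196-13848104, 73.8), and 10038 bases from GNGT2 (70.9).

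The coding promoters that PTBP1 occupied were rich in G and C. Over the 300 bases from 250 before to 50 after the TSS, read from hg38, the median GC content was 65.3% with a PTBP1 TSS peak and 57.7% without one, and the median CpG counts were 26 and 13. The share of genes with a PTBP1 peak was 2.74% of 1315 genes at 30 to 40% GC, 23.02% of 5079 at 50 to 60% and 39.1% of 3665 at 70 to 80%. At 80 to 90% GC it was 34.2% of 631 genes (30.6 to 38.02). The RUNX1 shares in those 4 groups were 2.36%, 18.2%, 33.0% and 26.1%. Around PTBP1 summits themselves, the median GC content of 101 bases was 67.3% at TSS peaks, 62.4% in gene bodies and 59.4% in intergenic sequence, against 68.3%, 55.4% and 52.5% for RUNX1.

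Short motifs were counted in the same promoters on both strands, with the share over all 20033 promoters as the reference. The GC box GGGCGG was in 72.1% of promoters with a PTBP1 peak (70.8 to 73.3), 45.4% without and 52.4% of all. The CRE core TGACG was in 36.9%, 23.3% and 26.9%, and the ETS motif CCGGAAG in 17.2%, 9.99% and 11.9%. The CCAAT box was in 40.5%, 34.3% and 35.9%. Longer motifs were rare. AAGATGGCG, the YY1 motif, was in 3.45%, 1.32% and 1.88%, and GCGCATGCG, the NRF1 motif, in 4.09%, 1.73% and 2.35%. The TATA motif TATAAA was in 4.64% of promoters with a peak, 12.99% without and 10.8% of all. The RUNX motif TGTGGT was in 9.70%, 13.3% and 12.4%. A run of at least 12 pyrimidines, the kind of stretch PTBP1 binds in RNA, was in 41.8% (40.4 to 43.1), 47.3% and 45.9%. The GC-rich motifs move with the GC content above, and their separate part was not tested. GC boxes were in 71.6% and pyrimidine runs in 42.5% of promoters with a RUNX1 peak. The RUNX motif was in 11.6% of them, below its 12.4% of all promoters. Among the same promoters the CRE core was in 34.9%, ETS in 17.2%, CCAAT in 39.8% and TATAAA in 5.09%. YY1 was in 2.88% and NRF1 in 3.82%.

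**Figure D5:**
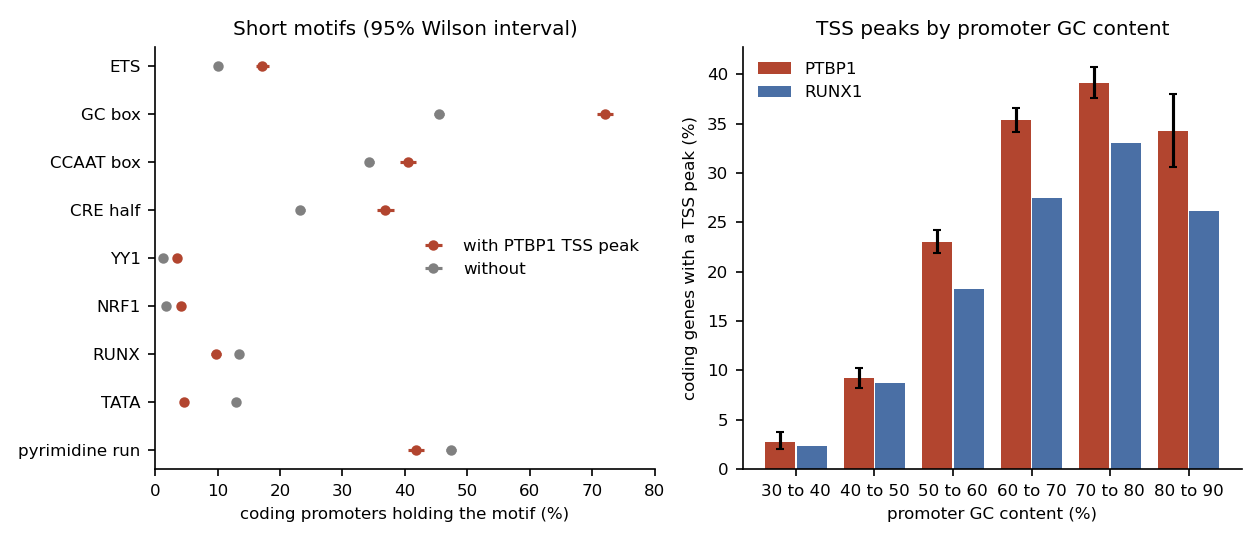
Left, share of protein-coding promoters (%) holding each short motif, with and without a PTBP1 TSS peak, with 95% Wilson intervals. Right, share of protein-coding genes with a TSS peak (%) by promoter GC content, for PTBP1 (with interval) and RUNX1. The GC box was in 72.1% of promoters with a peak and 45.4% without, and TATAAA in 4.64% and 12.99%.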

How the data were processed

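The data were peaks of CUT&Tag libraries of MOLM-13 cells. Per the labels and the study's methods, the authors clipped adapters, aligned read pairs to hg38 with Bowtie2, dropped duplicates and low-quality alignments, and ran MACS3 to call peaks. The submitters' processing notes also name cutadapt, FastQC, Picard, SAMtools and bedtools 2.30.0. The deposited lists carry only the target in their names and were read as CUT&Tag peaks, and whether replicates were pooled is not given in the sources used here. The deposited values were, per peak, the ratio of stacked fragments to background (fold enrichment), the −log10 p-value and the −log10 q-value (at least 7.04 in the PTBP1 list), and the summit position. Library depths were not used here.

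Fragments at the summit and background were solved together from the deposited ratio and p-value (largest difference of the refitted −log10 p-value 0.00134). A background above 1.5 times the usual value was called raised. No PTBP1 peak passed the end of its hg38 chromosome. Genes were those of GENCODE version 44 on chromosomes 1 to 22, X and Y. Peaks were compared by an overlap of at least 1 base, and exons and introns are those of the canonical transcript at the summit. Families were symbol patterns. The members, families, motifs and other lists were chosen with earlier results of these data known, and nothing was tested, since each target had 1 list. The named genes were those at the 10 strongest peaks, the 10 with most peaks, the 5 strongest noncoding-only and gene-body peaks, the 3 strongest intergenic peaks, up to 3 leading members of each family (every member on a side of 5 or fewer) and the PTBP genes. Other names were added after values were seen, and some named members are not reported here.

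Promoter windows were planned from the RefSeq promoter table. It matched 15367 of 20033 coding genes by symbol (76.7%, under the minimum of 80%), so that check was void and the same windows were read from hg38 at GENCODE starts. Of the 101 microRNA genes under a peak, 94 were in the RefSeq microRNA table. The procedures were tested on simulated data. Alternatives covered the TSS window, the significance threshold, the transcript set, the crowded windows and the overlap rule. The tools were scipy 1.17.1, pandas 2.3.3, numpy 2.4.6 and, for figures, matplotlib 3.10.9, under Python 3.11.15.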

Additional observations from a re-analysis of the deposited data

How the results depend on the processing

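With only 1 peak list per target, no library could be left out. No paired analysis was possible because the lists carry no replicate values. The share of peaks at a TSS was 52.5% with a window of 500 bases, 62.8% with 2 kb, 42.7% with the TSS base inside the peak, 53.0% with the summit within 1 kb, 71.7% with the start of any annotated transcript, 71.4% at a −log10 q of at least 20 and 62.5% without the crowded windows. At that −log10 q the genes with a TSS peak fell to 5045, and the lncRNA genes to 1167. With the TSS base inside the peak 1130 lncRNA genes had one. Every other count of genes, coding genes and lncRNA genes stayed within 1.5 times the value reported. TSS peaks with more than 1 TSS made up 38.6% at 500 bases, 30.6% with the TSS base inside and 46.3% at the stricter threshold, which also moved the divergent coding starts to 10.2%. Genes with 5 or more peaks numbered 92 without crowded windows and 32 at the stricter threshold. The exonic share of gene-body summits was 14.3% at that threshold and 29.9% over all annotated transcripts. Intron 1 held 22.8% of all gene-body summits and 25.2% outside crowded windows. The RUNX1 overlap of TSS peaks was 51.0% when 50% of the PTBP1 peak had to be covered and 57.6% at the stricter threshold in both lists. Genes of at least 5000 bases with 50% or more in peaks numbered 31 without crowded windows, an alternative chosen after seeing the data, and 100 on the usual background. The medians of fold enrichment moved by less than their spread over peaks under the alternatives run. Of 39 coding families, 27 lay above the coding background, and 25 to 28 did so under the 3 alternatives. The 51 family counts stayed within 1.5 times in 35 families with the TSS base inside, in 50 with any transcript start and in 30 at the stricter threshold. A fixed significance threshold leaves out weaker sites, so a gene without a peak is not shown to lack PTBP1.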

Other observations

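The FAM86 family, a methyltransferase gene family with many near-identical pseudogene copies, stood out among noncoding peaks and was chosen after its values were seen. Of 14 loci named FAM86, 10 had a PTBP1 TSS peak and 9 a RUNX1 TSS peak, with PTBP1 fold enrichments from 9.88 to 150.6. Over all genes, PTBP1 TSS peaks reached 0.899% of 15233 pseudogenes and 26.4% of coding genes. The RUNX1 list reached 116 of those pseudogenes and 21.3% of coding genes. The 14 loci were not split into coding genes and pseudogenes. The lines give 60 bases at the FAM86FP summit and the best match within the peak of 3 other copies, all in hg38 and written 5′ to 3′ on the strand given, with bases that differ from FAM86FP in capitals.
FAM86FP (chr12:8243217-8243276, minus strand): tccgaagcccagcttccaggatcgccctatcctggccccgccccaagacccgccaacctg
FAM86KP (chr4:9152964-9153023, plus strand): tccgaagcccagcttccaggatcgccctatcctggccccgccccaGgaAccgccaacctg
FAM86C2P (chr11:67805584-67805643, minus strand): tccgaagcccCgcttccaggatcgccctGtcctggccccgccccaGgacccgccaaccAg
FAM86GP (chr11:3422768-3422827, minus strand): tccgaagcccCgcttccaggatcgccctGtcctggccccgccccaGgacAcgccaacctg
The KP copy had 2 differences and a fold enrichment of 44.2, the C2P copy 4 and 132.5, and the GP copy 4 and 108.7. Reads from copies this alike can be placed at the wrong locus, and the part this plays in the values was not tested.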
